A study of Mus musculus with 14 samples.

Results

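The genes described here encode 43 enzymes, carrier subunits and regulators of glycolysis, of pyruvate entry into mitochondria and of the tricarboxylic acid (TCA) cycle. They were taken by gene symbol from a given list, and all 43 were found among the 37310 Ensembl gene identifiers of the deposited count tables. RNA was sequenced from 14 mouse libraries, all labelled with the C57BL/6 strain. Of these, 6 were wild-type β-cells, which secrete insulin in the pancreatic islets: 3 were neonatal, at postnatal day 6, and 3 adult, at day 45. Whole islets of mice 8 weeks old were labelled TSC1 KO (n = 2) or control (n = 2), with the prefix RC. The design text places this knockout in β-cells, and neither the Cre driver nor the deleted exons of Tsc1, which encodes a brake on the growth kinase complex mTORC1, are given in the sources used here. Whole islets of mice 4 weeks old were labelled Db (n = 2), the name in common use for a leptin receptor mutation, or control (n = 2), with the prefix BKS. The meaning of the prefixes and whether the libraries of a group came from separate animals are not given, so each p-value reflects only the spread among these libraries, which may be technical.

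Glycolysis splits glucose into pyruvate in the cytosol. Phosphofructokinase is its main control point and is activated by fructose 2,6-bisphosphate, which the bifunctional PFKFB enzymes make and break down. Pyruvate then either becomes lactate through lactate dehydrogenase or enters the mitochondrion through the carrier MPC1-MPC2. There pyruvate dehydrogenase, which is switched off by its kinases (PDKs) and on by its phosphatases (PDPs), passes it to the TCA cycle. In β-cells this oxidation couples the glucose level to insulin secretion, and mature β-cells are known for low lactate dehydrogenase. mTORC1 is known to raise glycolytic transcripts through the hypoxia-inducible factor, and the energy sensor AMPK opposes mTORC1.

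Before the values, 4 upstream sequences are shown for members whose call in Db islets held under every alternative processing tried: Pfkfb2, the regulator that fell most, Eno1 and Aldoa, the glycolytic enzymes that rose most among those members, and Mpc2, a pyruvate carrier subunit that fell. Each is the 250 bases before the RefSeq start farthest upstream (GRCm38.p6), printed 5′ to 3′ on the gene's strand. Capitals mark the 5-letter motifs ACGTG or GCGTG, the core letters that hypoxia-inducible factors recognise, or their reverse complements. Pfkfb2 is at chr1:130716049-130716298 (minus strand), Eno1 at chr4:150236458-150236707 (plus), Mpc2 at chr1:165461010-165461259 (plus) and Aldoa at chr7:126800448-126800697 (minus).
Pfkfb2: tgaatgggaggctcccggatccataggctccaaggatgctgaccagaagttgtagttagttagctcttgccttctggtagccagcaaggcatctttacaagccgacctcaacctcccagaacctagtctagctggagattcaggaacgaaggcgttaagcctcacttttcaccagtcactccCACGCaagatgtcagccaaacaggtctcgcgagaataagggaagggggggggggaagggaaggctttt
Eno1: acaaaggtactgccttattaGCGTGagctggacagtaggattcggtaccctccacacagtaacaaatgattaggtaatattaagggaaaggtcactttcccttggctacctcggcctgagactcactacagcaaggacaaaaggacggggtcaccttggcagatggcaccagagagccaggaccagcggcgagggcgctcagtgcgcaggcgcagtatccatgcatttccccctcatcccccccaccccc
Mpc2: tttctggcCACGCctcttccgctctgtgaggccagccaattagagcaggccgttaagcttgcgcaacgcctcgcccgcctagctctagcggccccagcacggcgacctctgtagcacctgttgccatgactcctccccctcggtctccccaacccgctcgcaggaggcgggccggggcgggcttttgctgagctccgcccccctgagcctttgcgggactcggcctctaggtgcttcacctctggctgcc
Aldoa: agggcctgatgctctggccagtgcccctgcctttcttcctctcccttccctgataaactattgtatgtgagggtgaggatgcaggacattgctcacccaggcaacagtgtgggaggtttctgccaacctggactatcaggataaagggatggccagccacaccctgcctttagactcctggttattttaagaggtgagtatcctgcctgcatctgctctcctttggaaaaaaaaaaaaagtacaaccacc
The Aldoa window holds neither motif, and each of the other windows holds GCGTG at 1 place. Among the 41 members with a RefSeq window (Idh3a and Pdp1 had none), 22 held GCGTG on either strand (53.7%), against 33.7% of 17492 protein-coding genes. ACGTG was found in 10 members (24.4%) against 17.6%, and the E-box CACGTG, which always contains ACGTG, in 3 members (7.32%) against 6.65%. The 3 were Pfkm, Pdk2 and Pdp2, chosen for naming after the search. The windows of the members also held more G and C, with a median of 58.8% against 55.2% for all genes, and the part of this difference in the GCGTG count was not tested. Several starts were listed for 11 of the 41 members and 2761 of the 17492 genes, and only the window farthest upstream was used. A match is a run of letters and not a binding site, and a window without one says nothing about the factor.

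Gene counts per library ran from 3507929 to 17688772, and the 43 genes together took between 0.092% and 0.396% of them. The insulin genes took 0.97% to 70.03% and mitochondrially encoded genes 0.15% to 46.83%. Levels are given as CPM, counts scaled to a common library total, with library sizes adjusted by the TMM method. A gene is called higher or lower where the Benjamini-Hochberg adjusted p of edgeR's quasi-likelihood test, two-sided and adjusted over all genes tested in that comparison, is under 0.05. The targeted gene did not separate its groups: Tsc1 stood at 31.0 and 34.4 CPM in islets labelled TSC1 KO and at 25.1 and 54.1 in their controls (edgeR adjusted p = 0.638), and counts over the whole gene do not check the deletion of unstated exons in 1 cell type of a mixed tissue.

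Per kilobase of the longest transcript, Pkm, which encodes the pyruvate kinase of most tissues, and Aldoa, the main aldolase, were the top pair in each of the 6 groups. Pkm led in neonatal β-cells, at 282 to 350 CPM per kilobase against 145 to 207 for Aldoa, and in adult β-cells, at 321 to 398 against 221 to 267. In the RC controls the order was Aldoa (183 to 251) then Pkm (184 to 190), with overlapping ranges, and in the TSC1 KO islets Aldoa (179 to 188) then Pkm (98.7 to 111). In the BKS controls Pkm (99.6 to 144) stood above Aldoa (71.8 to 91.7), and in Db islets Aldoa (226 to 227) lay just above Pkm (199 to 225). Idh2, the mitochondrial NADP-linked isocitrate dehydrogenase, ranked 3 or 4 in every group. Gapdh, usually among the most abundant transcripts of a cell, stood at 1.39 to 12.8 CPM and ranked between 36 and 40 of 43. Its longest annotated transcript has 3289 bases and its principal one (APPRIS) 1420. Per kilobase of the principal transcripts, an alternative added after seeing the data, Gapdh ranked between 28 and 39, Idh2 between 3 and 5, and Pkm and Aldoa were again the top pair in each group. Of the 50-base stretches of the longest Gapdh transcript, 27.8% also occur in other annotated genes, 218 of them, and its principal transcript was not examined. The same share was 72.2% for Eno1, 68.0% for Pgk1, 41.5% for Pgam1, 34.4% for Pkm, 29.6% for Mpc1, 27.0% for Ldhb, 26.1% for Pfkfb2 and 21.8% for Suclg2. The counts of all these genes are uncertain, those with calls described here included, and their levels against other genes more so. For each other member the share was at most 16.9%.

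**Figure D1:**
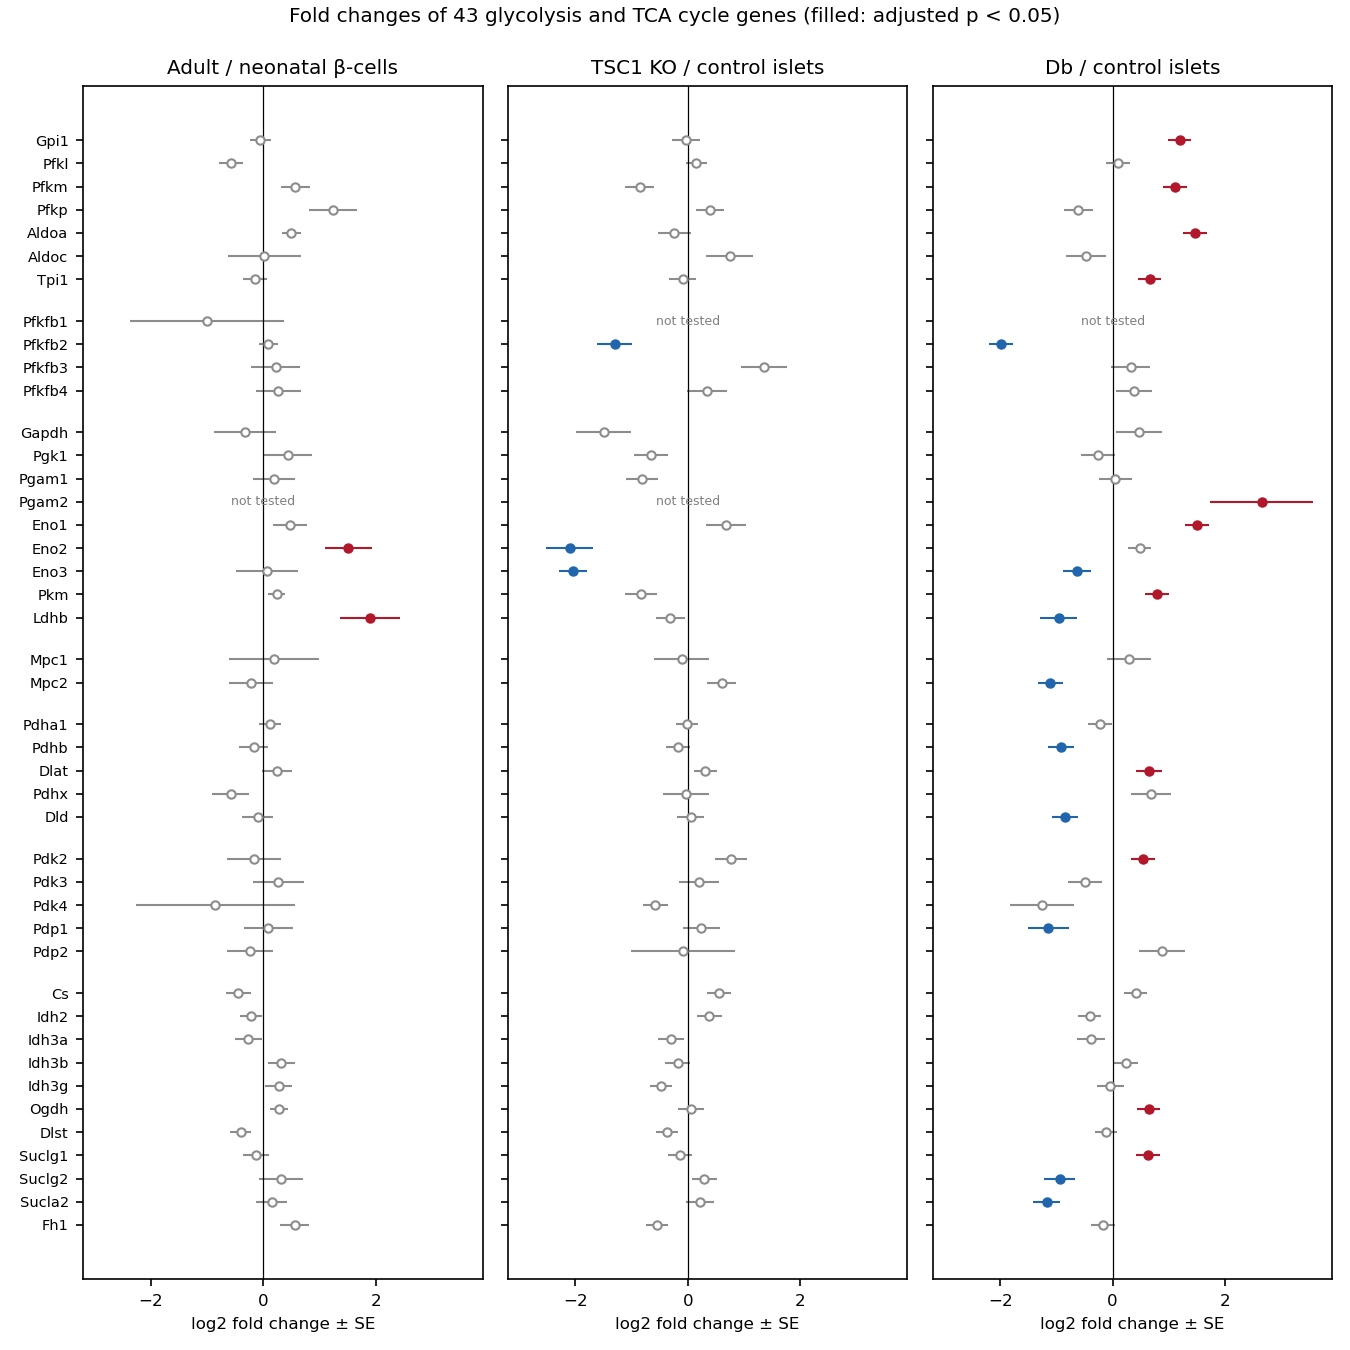
Log2 fold change (x axis, with its SE as a bar) of each of the 43 genes (rows, ordered by role) in adult against neonatal β-cells, TSC1 KO against control islets and Db against control islets. Filled points passed the adjusted p of 0.05: 2 higher in adults and 3 lower in TSC1 KO islets. In Db islets 11 were higher, Pgam2 among them, and 9 lower. Of all genes tested, 6.98%, 18.6% and 48.2% passed in these comparisons. Pgam2 passed the filter on low counts only through the Db libraries.

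The comparison of adult with neonatal β-cells asks how these transcripts differ across postnatal maturation. Of 42 members tested, 2 were called higher, Ldhb and Eno2, and 0 lower. Among all 14304 genes the test called 3.38% higher and 3.60% lower, 6.98% together. The median log2 fold change of the tested members was 0.11, against -0.03 for all genes, and at an unadjusted p under 0.05 edgeR had 6 members higher and 1 lower. The adult libraries lay above every neonatal library for 6 members and below for 3, where the same held for 14.0% and 13.4% of all genes.

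Ldhb, the heart-type lactate dehydrogenase subunit, stood at 6.63, 2.22 and 5.36 CPM in neonatal and at 20.7, 11.7 and 20.7 CPM in adult β-cells. The groups did not overlap, and the level was low in all 6 libraries. The rise was 3.73-fold (log2 fold change 1.90 ± 0.54 SE, edgeR adjusted p = 0.0454). Eno2, the enolase known from neurons and endocrine cells, stood at 13.5, 11.8 and 4.93 CPM in neonatal and 28.4, 35.2 and 22.1 CPM in adult cells. Every adult library again exceeded every neonatal one, by 2.84-fold in the fit (log2 fold change 1.51 ± 0.42 SE, edgeR adjusted p = 0.041). When any 1 library was left out Ldhb was no longer called, and Eno2 kept its call only without neonatal replicate 3a (adjusted p over all alternatives 0.0109 to 0.206 and 0.0087 to 0.208). Ldhb was not called with limma-voom either. Scaled by library size alone, 0 members were higher and 1 lower, Pfkl (8.34% of all genes called).

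Among the phosphofructokinase genes, none was called. Pfkp, the platelet-type subunit, stood at 7.81, 35.2 and 15.1 CPM in neonatal and 52.2, 43.3 and 42.0 CPM in adult cells (log2 fold change 1.24 ± 0.43 SE, edgeR adjusted p = 0.107). Neonatal replicate 3a, at 35.2, lay near the adult libraries, and without it Pfkp was called higher (edgeR adjusted p = 0.000537, alternatives up to 0.303), as were Aldoa, Eno1 and Eno2. With every library kept, limma-voom and the fit with no filter on low counts also called Pfkp higher. Pfkl, the liver-type subunit, stood at 97.8, 98.1 and 114 CPM in neonatal and 57.9, 79.7 and 71.4 in adult cells (log2 fold change -0.57 ± 0.21 SE, edgeR adjusted p = 0.116). Pfkm, the muscle-type subunit, had a log2 fold change of 0.57 ± 0.26 SE with overlapping groups. As shares of the phosphofructokinase transcripts per kilobase, Pfkl made up 52.4% to 61.7% in neonatal and 31% to 41.3% in adult libraries, and Pfkm 28.7% to 44.6% and 49.1% to 57.7%. Pfkl was thus the leading subunit transcript in each neonatal library and Pfkm in each adult one, with no test of the shares.

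No other glycolytic gene was called between the ages. Pkm stood at 850, 712 and 686 CPM in neonatal and 781, 969 and 898 in adult cells, with overlapping groups (log2 fold change 0.24 ± 0.15 SE, edgeR adjusted p = 0.403). Aldoa stood at 264, 320 and 225 CPM against 343, 385 and 413, with each adult library above each neonatal one (log2 fold change 0.50 ± 0.17 SE, edgeR adjusted p = 0.0904). Pfkfb2, the heart-type PFKFB, stood at 179, 203 and 231 CPM in neonatal and 201, 234 and 219 CPM in adult cells, and made up 76.3% to 85.9% of the PFKFB transcripts per kilobase in all 6 libraries. Gapdh overlapped between the ages, at 12.6, 5.78 and 12.8 CPM against 8.36, 5.57 and 10.9 CPM. Pfkfb1, the liver-type PFKFB, was low, at 3.12, 1.61 and 3.89 CPM in neonatal and 0.936, 0.5 and 2.88 in adult cells (log2 fold change -1.0 ± 1.37 SE). Pgam2, the muscle phosphoglycerate mutase, had 0 counts in all 6 libraries, which allows up to 0.183 to 0.24 CPM (3 counts) and covers counting error only.

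None of the genes of the pyruvate carrier, of pyruvate dehydrogenase and its regulators or of the TCA cycle was called. Cs, citrate synthase, which feeds acetyl-CoA into the cycle, stood at 97.0, 106 and 120 CPM in neonatal and 64.7, 104 and 69.0 CPM in adult cells (log2 fold change -0.44 ± 0.22 SE, edgeR adjusted p = 0.282). Pdha1, the catalytic α subunit of pyruvate dehydrogenase, stood at 119, 134 and 85.9 CPM against 133, 122 and 114. Pdk4, the pyruvate dehydrogenase kinase known from fasting, varied most, at 3.06, 0 and 8.76 CPM in neonatal and 1.00, 1.57 and 4.00 in adult cells. The 11 TCA cycle genes ran from -0.44 to 0.56 on the log2 scale, with Fh1, fumarase, at the upper end (0.56 ± 0.26 SE, edgeR adjusted p = 0.227).

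Of 28 other genes of these pathways, 20 were tested and 2 were called, both higher in adults, where 6.98% of all genes tested were called. Ogdhl, a relative of the oxoglutarate dehydrogenase Ogdh, stood at 362, 318 and 443 CPM in neonatal and 708, 671 and 658 CPM in adult cells (log2 fold change 0.86 ± 0.15 SE, edgeR adjusted p = 0.00322). Sdha, the flavoprotein of succinate dehydrogenase, had a log2 fold change of 0.71 ± 0.19 SE (edgeR adjusted p = 0.036). The β-cell markers rose with age for 7 of 12 (summed level 25225 to 34566 CPM in neonatal, 57103 to 93149 in adult libraries), and 5 of 12 duct markers fell (1323 to 2084 against 785 to 939). Markers of other endocrine cells fell for 3 of 11 (1450 to 2783 against 664 to 2557), acinar markers for 1 of 8, and endothelial, mesenchymal and immune markers for 0. Cpa1, Pecam1 and Ptprc, which define acinar, endothelial and immune cells, were at 0 in at least 1 library. In bulk RNA, fewer cells of a type and less RNA per cell cannot be told apart, and the part of these markers in the members' values was not tested.

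The comparison of islets labelled TSC1 KO with their controls asks how these genes stand where Tsc1 is labelled as deleted. The members past the test were enolases and Pfkfb2. Of 41 members tested, 0 were called higher and 3 lower, Eno2, Eno3 and Pfkfb2. Over all 14515 genes tested, 8.63% were higher and 10.0% lower (18.6% in all). Unadjusted, edgeR had 3 members higher and 10 lower at p under 0.05, and DESeq2 called 1 higher, Pfkfb3. The median log2 fold change was -0.09 over the tested members and 0.00 over all genes. The KO libraries lay above their controls for 11 members and below for 13, where 33.6% and 34.0% of all genes did so.

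Eno3, the muscle enolase, stood at 70.8 and 59.1 CPM in control and 17.9 and 13.0 CPM in TSC1 KO islets. This was a 4.15-fold fall, the member with the smallest adjusted p in this comparison (log2 fold change -2.05 ± 0.25 SE, edgeR adjusted p = 0.0113). Eno2 stood at 92.3 and 81.8 CPM in control and 28.4 and 11.4 CPM in TSC1 KO islets (-2.10 ± 0.42 SE, edgeR adjusted p = 0.0275). Eno1, the enolase of most tissues, went the other way without passing the test, at 71.9 and 36.6 CPM in control and 76.2 and 97.3 CPM in TSC1 KO islets (0.68 ± 0.35 SE, edgeR adjusted p = 0.222). Per kilobase, Eno1 made up 21.2% to 31.2% of enolase transcripts in control and 63.5% to 79.5% in TSC1 KO islets. Eno3 led in the control libraries, at 39.8% to 44.4%, and held 13.8% to 19.4% in the KO libraries. These shares and their order are uncertain. Of the 50-base stretches of Eno1, 72.2% also occur in other genes, against 0.3% for Eno2 and 0.0% for Eno3.

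In the PFKFB family 1 member was called. Pfkfb2 stood at 66.8 and 119 CPM in control and at 37.5 and 37.8 CPM in TSC1 KO islets (log2 fold change -1.30 ± 0.31 SE, edgeR adjusted p = 0.038). Pfkfb3, the inducible form with high kinase activity, stood at 38.4 and 17.4 CPM in control and 82.7 and 59.2 CPM in TSC1 KO islets. The groups did not overlap, yet the difference missed the threshold (1.35 ± 0.41 SE, edgeR adjusted p = 0.0737). With the replicate number as a block Pfkfb2 was no longer called and Pfkfb3 was called higher. As a share of PFKFB transcripts per kilobase, Pfkfb2 held 59.3% to 79.7% in controls and 28.2% to 34.1% in TSC1 KO islets, and the share of Pfkfb3 was 10.9% to 32% in controls and 50.2% to 58.3% in the KO. Pfkfb1, with 4 and 6 counts in controls and 6 and 11 in KO libraries, and Pgam2, with 2 and 4 against 5 and 2, were too low to be tested.

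**Figure D2:**
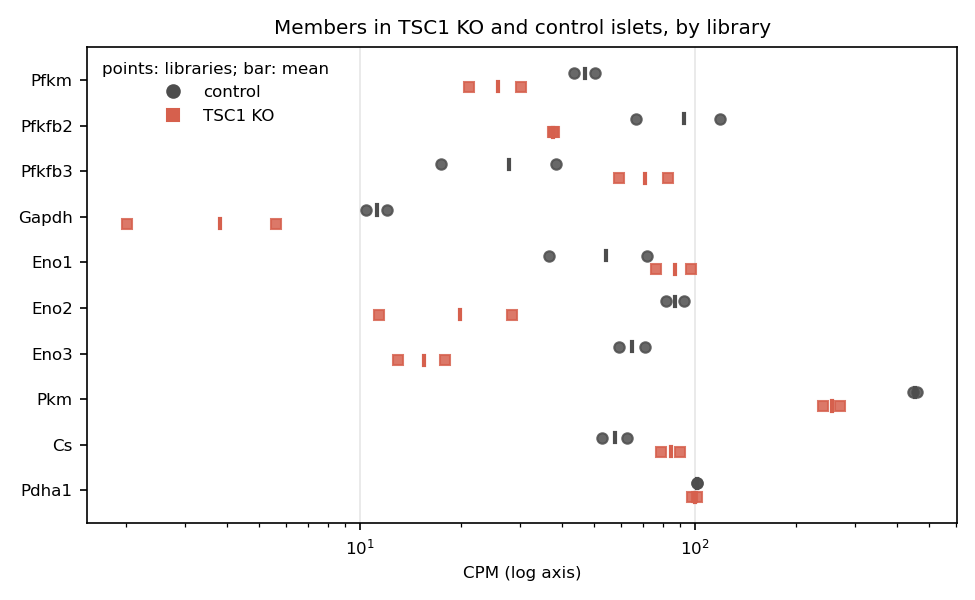
CPM on a log axis of 10 glycolysis and TCA cycle genes in each control (grey circles) and TSC1 KO (red squares) islet library, with the group mean as a bar. Eno2, Eno3 and Pfkfb2 passed the test and lie lower in both KO libraries; the points of Pdha1 overlap.

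The other glycolytic genes missed the threshold, with Pfkm, Pkm, Gapdh, Pgam1 and Pgk1 lower in both TSC1 KO libraries and Eno1, Aldoc, Pfkp and Pfkl higher in both. Pfkm stood at 43.6 and 50.3 CPM in control and 30.3 and 21.1 CPM in TSC1 KO islets (log2 fold change -0.86 ± 0.25 SE, edgeR adjusted p = 0.0589). Pkm stood at 461 and 448 CPM against 271 and 240 (-0.83 ± 0.28 SE, edgeR adjusted p = 0.0853), and Gapdh at 12.0 and 10.4 against 5.59 and 2.01 CPM (-1.50 ± 0.49 SE, edgeR adjusted p = 0.08). Pgam1, the common phosphoglycerate mutase, had a log2 fold change of -0.82 ± 0.28 SE (edgeR adjusted p = 0.0881). Aldoc, the aldolase known from brain, had a log2 fold change of 0.74 ± 0.42 SE, Pfkp one of 0.39 ± 0.25 SE and Pfkl one of 0.15 ± 0.19 SE, whose sign turned under scaling by library size alone. DESeq2 called Pkm lower, and the fit with no filter on low counts called Gapdh and Pfkm lower. Gpi1, the glucose 6-phosphate isomerase, and Tpi1, which interconverts the triose phosphates, had overlapping groups, at -0.04 ± 0.25 and -0.09 ± 0.24 SE. Within the phosphofructokinases the share of Pfkm per kilobase was 40.5% to 48.3% in control and 24.1% to 30.1% in TSC1 KO islets.

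None of the mitochondrial members passed the test in TSC1 KO islets. Cs stood at 62.4 and 52.8 CPM in control and 79.0 and 90.0 CPM in TSC1 KO islets (0.55 ± 0.21 SE, edgeR adjusted p = 0.111). Pdha1 had overlapping groups, at 101 and 101 CPM in control and 98.1 and 101 CPM in TSC1 KO islets (-0.02 ± 0.20 SE). Fh1 was lower in both KO libraries (-0.55 ± 0.19 SE, edgeR adjusted p = 0.0961), as were Pdk4 (-0.58 ± 0.22 SE, edgeR adjusted p = 0.113) and Idh3g, a subunit of the NAD-linked isocitrate dehydrogenase (-0.48 ± 0.19 SE, edgeR adjusted p = 0.127). Pdk2 was higher in both, at 17.7 and 16.3 CPM in control and 22.6 and 35.8 CPM in KO libraries (edgeR adjusted p = 0.105). Without either KO library edgeR called 0 genes of any kind (3535 and 3061 at an unadjusted p under 0.05), so no member's call holds on 1 KO library alone. Without RC control replicate 1, 5 of 42 members were higher and 5 lower, where 27.2% of all genes were called.

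Among the 28 other genes of the pathways, 22 were tested in this comparison, 1 was higher and 2 lower. Of all genes tested, 8.63% were higher and 10.0% lower. Pcx, pyruvate carboxylase, which refills the TCA cycle and is abundant in β-cells, stood at 84.4 and 115 CPM in control and 18.4 and 14.0 CPM in TSC1 KO islets (log2 fold change -2.61 ± 0.27 SE, edgeR adjusted p = 0.0105). Pck2, the mitochondrial phosphoenolpyruvate carboxykinase, fell by 0.80 ± 0.20 SE on the log2 scale (edgeR adjusted p = 0.0418). Aco1, the cytosolic aconitase, was the gene that rose (0.97 ± 0.23 SE, edgeR adjusted p = 0.039).

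The makeup of these islet libraries differed as well. In TSC1 KO islets 11 of 12 β-cell markers fell, and their summed level was 13000 to 13479 CPM against 235838 to 266723 in controls. Markers of other endocrine cells fell for 7 of 11 and rose for 1 (3287 to 7955 against 28394 to 34059 CPM). Endothelial markers rose for 3 of 8 (3718 to 4961 against 2351 to 2611) and duct markers for 2 of 12 (3255 to 4637 against 612 to 1959). Acinar (1428 to 3526 against 2276 to 3367) and mesenchymal markers (1377 to 5071 against 988 to 1310) had 0 called, and 1 of 9 immune markers fell. No defining marker was at 0. Mitochondrially encoded genes took 39.77% and 46.83% of counts in TSC1 KO and 12.36% and 9.05% in control libraries. The part of these shifts in the members' values was not tested.

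Db islets had the most members called of the 3 comparisons. Aldoa and Eno1 were higher, and Pfkfb2 and Mpc2 lower. Calls in lower glycolysis, pyruvate dehydrogenase and the TCA cycle went in both directions, and those in upper glycolysis were all higher. Of 42 members tested, 11 were called higher and 9 lower. The 11 include Pgam2, which entered the test through its Db libraries alone, and 10 are higher without it. Over all 14369 genes tested 24.3% were higher and 23.9% lower, so that the called share of the members (47.6%, Pgam2 included) was near the 48.2% of all genes. The median log2 fold change was 0.07 over the tested members and -0.03 over all genes. When libraries were scaled by their size alone, the median of all genes moved to 0.29. The members then split into 13 higher and 3 lower, and all genes into 3983 higher and 1562 lower (38.6% called). The Db libraries lay above both controls for 17 members and below for 17, where 37.2% and 37.5% of all genes did so.

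By role, 4 of 7 upper glycolysis genes rose and 0 fell, where 24.3% and 23.9% of all genes tested did so. Aldoa (ENSMUSG00000030695) stood at 142 and 111 CPM in control and at 350 and 352 CPM in Db islets. This was a 2.77-fold rise (log2 fold change 1.47 ± 0.21 SE, edgeR adjusted p = 2.42e-06). Gpi1 stood at 55.4 and 48.4 CPM in control and 118 and 119 CPM in Db islets (1.19 ± 0.20 SE, edgeR adjusted p = 2.12e-05). Pfkm stood at 31.6 and 21.4 against 54.5 and 60.1 CPM (1.11 ± 0.21 SE, edgeR adjusted p = 0.000128). In each of these 3 genes both Db libraries exceeded both controls by a gap wider than the spread within either group. Tpi1 rose less, from 48.9 and 39.3 CPM to 68.1 and 71.7 CPM (0.66 ± 0.20 SE, edgeR adjusted p = 0.00797).

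The other phosphofructokinase subunits were not called. Pfkl had a log2 fold change of 0.10 ± 0.21 SE and Pfkp one of -0.61 ± 0.26 SE (edgeR adjusted p = 0.0519). Pfkp was called lower with limma-voom and with TMM scaling that left out mitochondrial and insulin genes. Pfkm therefore made up 58.8% to 60.4% of phosphofructokinase transcripts per kilobase in Db islets, against 40.6% to 42% in controls. The regulator of the step moved in the opposite direction. Pfkfb2 (ENSMUSG00000026409) stood at 53.0 and 60.7 CPM in control and at 15.4 and 13.5 CPM in Db islets, a 3.93-fold fall (log2 fold change -1.98 ± 0.21 SE, edgeR adjusted p = 1.89e-08). No other member had as small an adjusted p. Pfkfb3 and Pfkfb4, the testis and hypoxia-linked form, were not called (0.32 ± 0.35 and 0.38 ± 0.32 SE). Pfkfb2 took 87.9% to 89% of PFKFB transcripts per kilobase in controls and 57.2% to 63.6% in Db islets. Pfkfb1, at 0.107 to 0.257 CPM in the 4 libraries, was not tested.

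**Figure D3:**
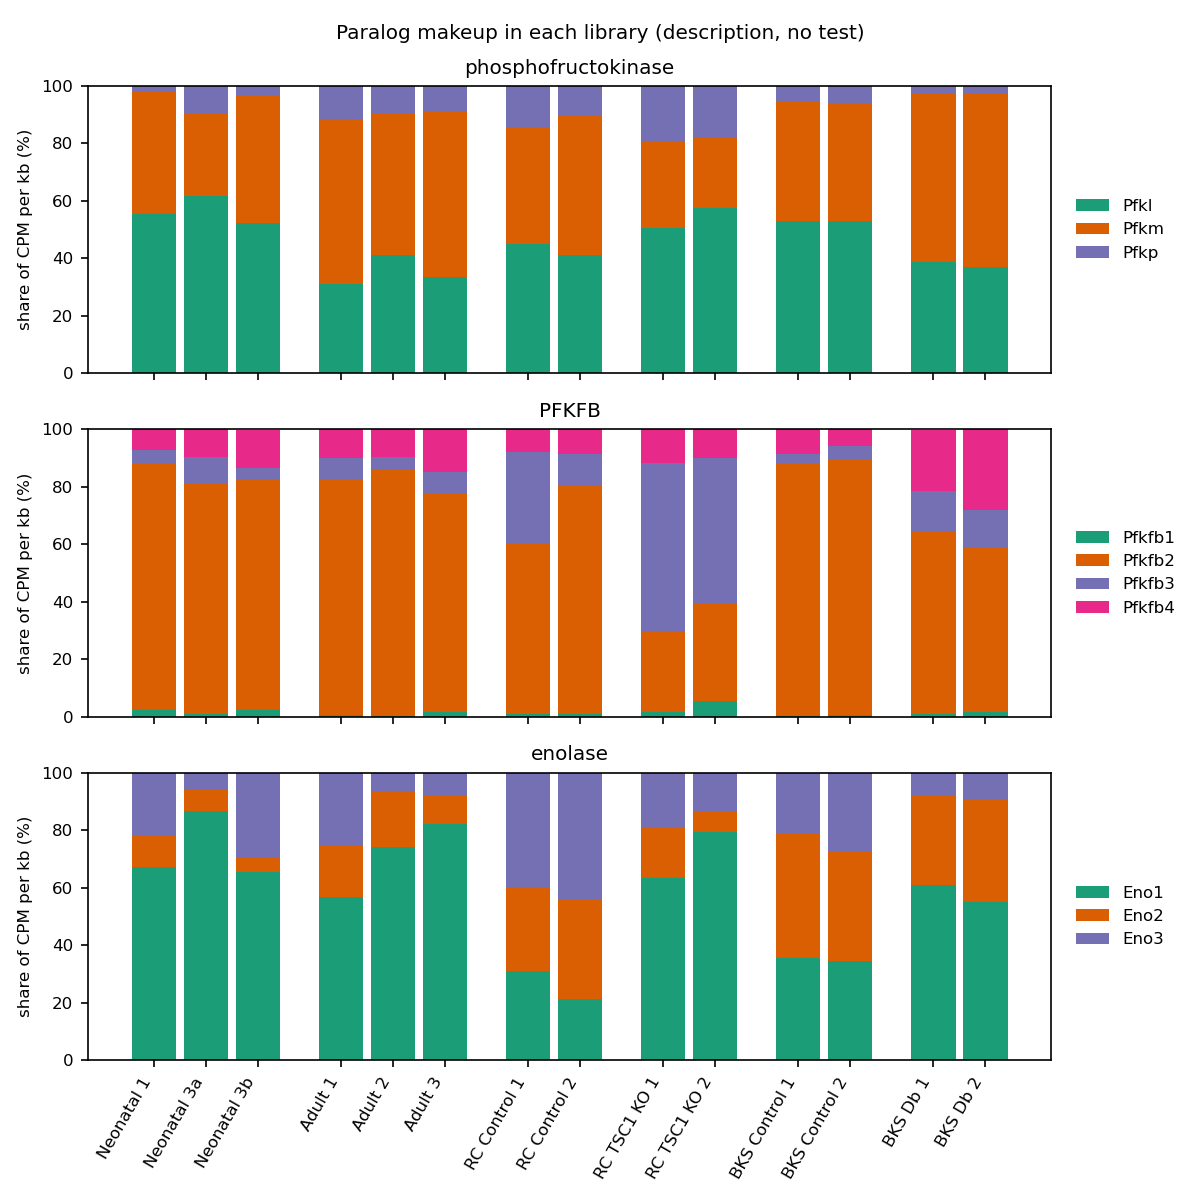
Share (percent, y axis) of each paralog in the CPM per kilobase of its family, for phosphofructokinase, PFKFB and enolase, in each of the 14 libraries (x axis). Eno1 takes 63.5% to 79.5% in TSC1 KO islets against 21.2% to 31.2% in controls, and Pfkm 58.8% to 60.4% in Db islets against 40.6% to 42%. The enolase shares are uncertain, as 72.2% of the 50-base stretches of Eno1 also occur in other genes.

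In lower glycolysis 9 genes were tested, Pgam2 among them. Pgam2 apart, 2 genes rose, Eno1 and Pkm, and 2 fell, Eno3 and Ldhb, where 24.3% and 23.9% of all genes tested did so. Eno1 (ENSMUSG00000063524) stood at 25.2 and 19.8 CPM in control and 64.5 and 62.6 CPM in Db islets (2.82-fold, log2 fold change 1.50 ± 0.21 SE, edgeR adjusted p = 1.65e-06). Pkm stood at 351 and 242 CPM against 483 and 546 (0.79 ± 0.22 SE, edgeR adjusted p = 0.00415). Eno3 fell from 11.7 and 11.9 CPM to 6.63 and 8.44 CPM (-0.64 ± 0.25 SE, edgeR adjusted p = 0.0374). This call was lost with DESeq2, under scaling by library size alone, with no filter on low counts and without any 1 of the 4 libraries. Among the enolases the share of Eno1 per kilobase was 34.6% to 35.7% in controls and 55.1% to 61% in Db islets. These shares are uncertain, as 72.2% of the 50-base stretches of Eno1 also occur in other genes. Eno2 was higher in both Db libraries without passing the test (0.48 ± 0.21 SE, edgeR adjusted p = 0.0614).

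Pgam2 was near the limit of detection, with 2 and 0 counts in control and 15 and 15 in Db islets. It passed the filter on low counts only through the Db libraries, so no test is drawn from it. The ratio of its levels was 6.64 with a 95% counting interval of 1.68 to 57.3, which leaves out the spread among libraries. Its edgeR call, from which nothing is drawn, was lost with DESeq2. Ldhb fell from 4.28 and 6.16 CPM in control to 2.16 and 3.15 CPM in Db islets (-0.96 ± 0.33 SE on the log2 scale, edgeR adjusted p = 0.0195). This call was lost with DESeq2, under scaling by library size alone, without BKS control replicate 2 and without Db replicate 1 (adjusted p over all alternatives 0.00605 to 0.208). Gapdh stood at 1.39 and 2.05 CPM in control and 1.99 and 2.71 CPM in Db islets, with overlapping groups (edgeR adjusted p = 0.354). Pgk1, which makes ATP in lower glycolysis, and Pgam1 were not called (-0.26 ± 0.31 and 0.05 ± 0.30 SE).

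**Figure D4:**
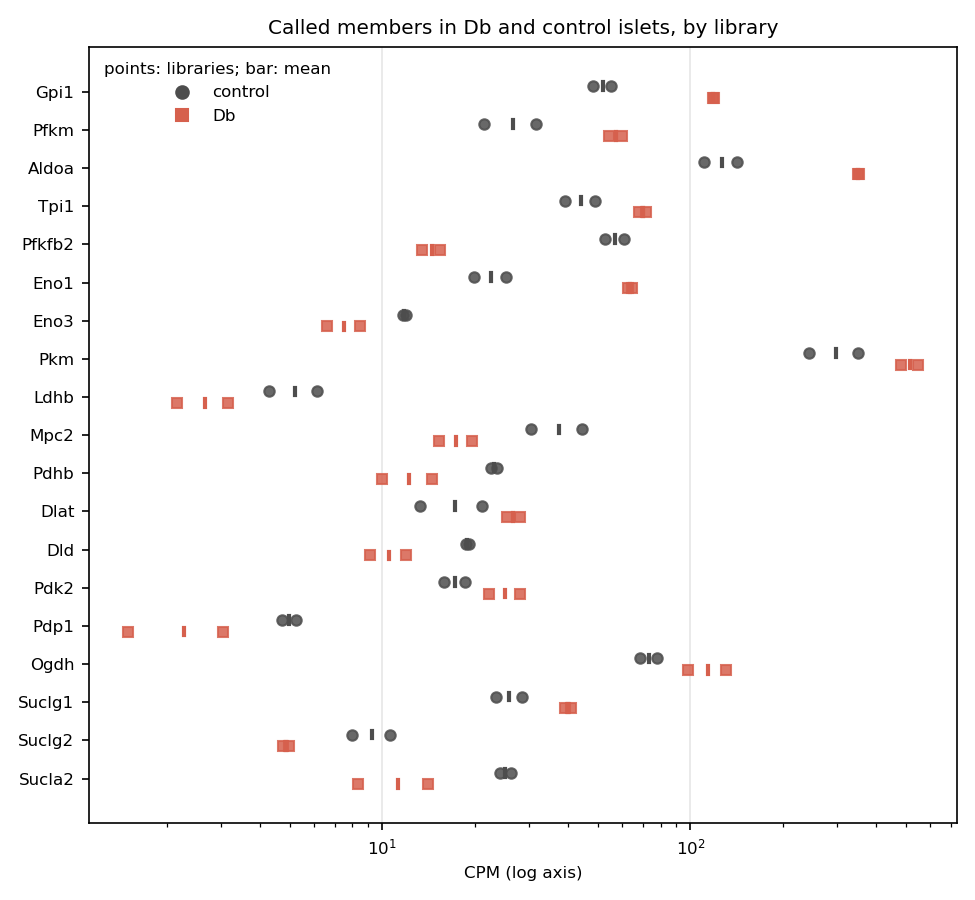
CPM on a log axis of the members called in Db islets, except Pgam2, in each control (grey circles) and Db (red squares) library, with the group mean as a bar. The libraries of the groups do not overlap in any row; Aldoa, Eno1, Gpi1 and Pfkm lie higher in Db and Pfkfb2, Mpc2 and Sucla2 lower.

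At the entry of pyruvate into the mitochondrion, Mpc2 (ENSMUSG00000026568) fell from 30.4 and 44.5 CPM in control to 19.5 and 15.3 CPM in Db islets (log2 fold change -1.11 ± 0.22 SE, edgeR adjusted p = 0.000223). Its partner Mpc1 was not called (0.29 ± 0.39 SE), with mean levels of 2.10 CPM in control and 2.53 CPM in Db islets. The calls among the subunits of pyruvate dehydrogenase went in both directions. Pdhb, the β subunit of its first component, fell from 22.6 and 23.6 CPM to 14.5 and 10.0 CPM (-0.91 ± 0.23 SE, edgeR adjusted p = 0.00193). Dld, the shared dihydrolipoamide dehydrogenase, fell from 19.1 and 18.7 to 11.9 and 9.11 CPM (-0.85 ± 0.23 SE, edgeR adjusted p = 0.00377). Dlat, the acetyltransferase core, rose from 13.3 and 21.1 CPM to 28.0 and 25.3 (0.64 ± 0.23 SE, edgeR adjusted p = 0.0233). The Dlat call was lost with DESeq2, and those of Pdhb and Dld under scaling by library size alone. Each of these calls was also lost in a fit with a library left out. Pdha1 was lower in both Db libraries, at 23.8 and 24.9 CPM against 27.8 and 28.9, without passing the test (-0.22 ± 0.21 SE, edgeR adjusted p = 0.396; 0.10 when scaled by library size alone).

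Of the kinases and phosphatases of pyruvate dehydrogenase, 1 of 5 rose and 1 fell, against 24.3% and 23.9% of all genes tested. Pdk2, a kinase found in most tissues, rose from 18.5 and 15.9 CPM to 22.2 and 28.0 (0.54 ± 0.22 SE, edgeR adjusted p = 0.0428), and DESeq2 and limma-voom did not call it. Pdp1, the calcium-stimulated phosphatase, fell from 4.71 and 5.26 CPM to 3.04 and 1.50 CPM (-1.14 ± 0.36 SE, edgeR adjusted p = 0.00948). Its relative Pdp2 was higher in both Db libraries, at 2.71 and 2.71 CPM against 1.18 and 1.80, and missed the threshold (edgeR adjusted p = 0.074). Pdk4 was low and uneven, at 0.643 and 3.34 CPM in control and 0.940 and 0.679 CPM in Db islets.

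In the TCA cycle 2 of 11 genes rose and 2 fell, against 24.3% and 23.9% of all genes tested. Of the 4 called, 3 belong to succinyl-CoA ligase, which makes GTP or ATP in the cycle. The common α subunit Suclg1 rose from 28.3 and 23.4 CPM in control to 39.3 and 40.9 in Db islets (0.63 ± 0.21 SE, edgeR adjusted p = 0.0131). The ATP-forming β subunit Sucla2 fell from 26.1 and 24.1 CPM to 14.1 and 8.34 CPM (-1.17 ± 0.24 SE, edgeR adjusted p = 0.000318). The GTP-forming β subunit Suclg2 fell from 10.6 and 7.96 CPM to 4.98 and 4.75 (-0.94 ± 0.28 SE, edgeR adjusted p = 0.00656). Both β subunits were thus lower while the α subunit was higher, and the share of Sucla2 among the β subunits per kilobase overlapped between the groups. Ogdh, the first component of oxoglutarate dehydrogenase, rose from 78.1 and 68.5 CPM to 98.2 and 130 (0.64 ± 0.20 SE, edgeR adjusted p = 0.0114). Cs stood at 19.7 and 21.3 CPM in control and 24.6 and 29.9 CPM in Db islets (0.41 ± 0.21 SE, edgeR adjusted p = 0.113). Idh2 was lower in both Db libraries (-0.41 ± 0.20 SE, edgeR adjusted p = 0.0903), and the other TCA cycle members lay between -0.38 and 0.24.

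Of the 20 calls, those of Pfkfb2, Eno1, Aldoa, Gpi1, Pfkm, Mpc2 and Sucla2 held in each of the 11 alternatives run. The other 13, Pgam2 among them, were lost in 1 to 7 alternatives each. Without Db replicate 2, 5 of 41 members were higher and 4 lower, and the share of all genes called fell as well, to 30.4%. Among the 28 other genes of the pathways, 21 were tested, 9 rose and 1 fell. Of all genes tested, 24.3% rose and 23.9% fell, 48.2% together. Pck2 stood at 51.6 and 41.7 CPM in control and 135 and 137 CPM in Db islets (1.54 ± 0.20 SE, edgeR adjusted p = 7.46e-07). Mdh2, the mitochondrial malate dehydrogenase, stood at 59.0 and 53.5 against 119 and 136 CPM (1.18 ± 0.20 SE, edgeR adjusted p = 2.54e-05). Pdk1 (1.12 ± 0.26), Sdhc (1.09 ± 0.21) and Sdhb (1.04 ± 0.21) rose by similar amounts on the log2 scale; Pdk1 is a kinase of pyruvate dehydrogenase, and Sdhb and Sdhc are subunits of succinate dehydrogenase.

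In Db islets 9 of 12 β-cell markers fell and 1 rose (summed level 427998 to 494961 CPM against 601143 to 921731 in controls). Acinar markers rose for 7 of 10 and fell for 1, at 138 to 303 CPM against 23.9 to 29.5, and mesenchymal markers rose for 6 of 9 and fell for 1 (567 to 604 against 298 to 404). Duct markers rose for 5 of 11 and fell for 3 (1245 to 1255 against 601 to 628), and endothelial markers rose for 2 of 8 and fell for 5 (565 to 571 against 798 to 839). Other endocrine markers rose for 3 of 11 and fell for 2, and 3 of 8 immune markers fell. No defining marker was at 0. Insulin transcripts took 48.33% and 45.53% of Db counts and 61.04% and 70.03% of control counts, and the part of these shifts in the members' values was not tested.

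Whether the islet comparisons differed was tested in 1 fit over the 8 islet libraries, as the TSC1 KO effect less the Db effect. Of 42 members tested, the difference was positive for 3 and negative for 8, against 13.2% and 18.6% of all 15702 genes (31.8% together). Under scaling by library size alone there were 1 and 11, and among all genes 868 and 3811 (29.8% together). The tables also differ in age and prefix, which cannot be told apart from the genotype here.

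The 8 negative differences were all in glycolysis but for Suclg1. Eno2 differed most (-2.66 ± 0.47 SE, edgeR adjusted p = 0.00211), with a fall in TSC1 KO islets and no call in Db islets. Pfkm differed by -2.06 ± 0.35 SE (edgeR adjusted p = 0.00099), Aldoa by -1.80 ± 0.34 SE (edgeR adjusted p = 0.00178), Pkm by -1.71 ± 0.35 SE (edgeR adjusted p = 0.00306) and Gpi1 by -1.32 ± 0.30 SE (edgeR adjusted p = 0.00521). Each of these 4 rose in Db islets and was not called in TSC1 KO islets. Eno3 was called lower in both comparisons and fell further in TSC1 KO islets (-1.49 ± 0.34 SE, edgeR adjusted p = 0.00568). Its call in Db islets was lost in 7 of 11 alternatives. Gapdh (-2.05 ± 0.64 SE, edgeR adjusted p = 0.0292) and Suclg1 (-0.86 ± 0.29 SE, edgeR adjusted p = 0.0393) lost the call in 6 of 14 alternatives each.

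**Figure D5:**
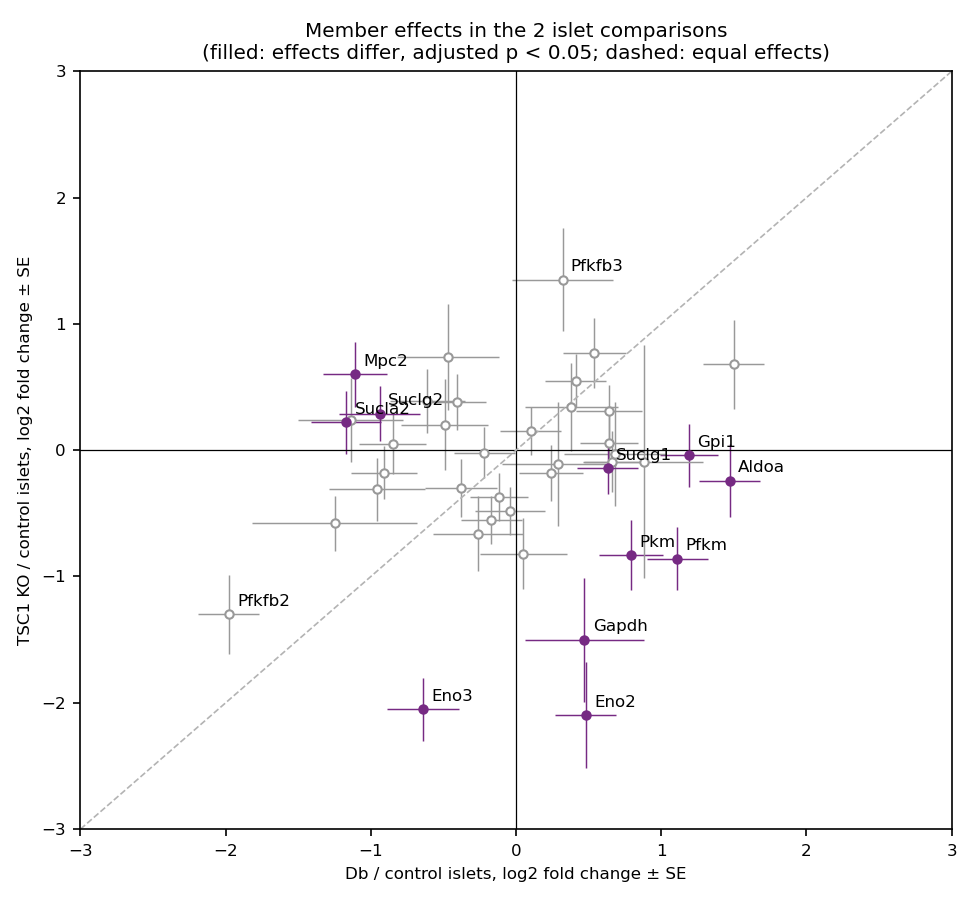
Log2 fold change ± SE of each member tested in both islet tables, Db against control on the x axis and TSC1 KO against control on the y axis, with equal effects on the dashed line. Filled points are the 11 members whose effects differed, among them Eno2, Pfkm and Aldoa below the line and Mpc2 above it.

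The positive differences were those of Mpc2 (1.62 ± 0.37 SE, edgeR adjusted p = 0.00593), Sucla2 (1.30 ± 0.38 SE, edgeR adjusted p = 0.0217) and Suclg2 (1.14 ± 0.36 SE, edgeR adjusted p = 0.0285). All 3 fell in Db islets and were not called in TSC1 KO islets, where Mpc2 had a log2 fold change of 0.60 ± 0.26 SE. Pfkfb2, which fell in both, showed no difference past the threshold (0.58 ± 0.37 SE, edgeR adjusted p = 0.241). The calls of Eno2, Mpc2, Aldoa, Pkm, Pfkm, Gpi1 and Eno3 held in each of the 14 alternatives run for this test, while Sucla2 kept its call in 9 of them (adjusted p up to 0.154) and Suclg2 in 5.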

How the data were processed

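RNA sequencing libraries of β-cells and whole islets were analysed from the raw gene counts that the authors deposited, whole numbers of reads per Ensembl gene with no normalization, in 3 separate tables. Per the labels' protocols, Trizol was used to extract islet RNA, and a stranded SMARTer kit to make the libraries. Tools named in the submitters' processing notes are HTSeq 0.7.1, GSNAP, DESeq2 1.16.0 and cutadapt 1.13, and the builds are NCBIM37 and mm9. A strand setting for the counting is not stated there. Rows that name no gene were left out, and gene rows held 24.52% to 44.27% of reads in the β-cell and Db tables (the TSC1 KO table has no such rows). Among the β-cell columns, 2 carry the heading of neonatal replicate 3 and none that of replicate 2. They are called 3a and 3b.

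Symbols matched 32620 identifiers (87.4%). Transcript lengths and shared 50-base stretches came from a GRCm38 annotation, a later build than the authors', and promoter windows from RefSeq. Each comparison was fitted within its table with edgeR 4.0.16 in R 4.3.3 (filterByExpr with a minimum count of 10 and a minimum total of 15, TMM, robust quasi-likelihood F test), which was checked on simulated counts. CPM were computed from the counts on TMM library sizes, and the SE of a log2 fold change was derived from its F statistic. Shares of counts have 95% Wilson intervals within 0.0522 percentage points, counting error only. Replicates differed well beyond sampling noise, so none was merged.

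Alternatives were DESeq2 1.42.0, limma-voom (limma 3.58.1), other scalings (RLE, library size only, and TMM without mitochondrial and insulin genes), no filter on low counts, each library left out and, for islets, a replicate block. The members, gene lists and tests were chosen with earlier results of these data known. Values in every library are given for up to 15 called members by size of change, the 3 largest uncalled ones, and Gapdh, Pkm, Cs, Pdha1 and Pfkfb2; members called in the interaction test are all named, as are up to 5 called genes of the other pathway list per comparison. Further members were named after their values were seen. Part of the other pathway list fixed at the start is not reported here, and its counts cover the 28 genes that remain.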

Additional observations from a re-analysis of the deposited data

How the results depend on the processing

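Scaling by library size alone moved the median log2 fold change of all genes to -0.19 (adult against neonatal), -0.25 (TSC1 KO), 0.29 (Db) and -0.47 (TSC1 KO less Db effect). Under it 0 members were higher and 1 lower in adult β-cells (8.34% of all genes called). The members' median was -0.33 in TSC1 KO and 0.37 in Db islets. With this scaling 3 of 42 members and 1562 of 14369 genes were lower in Db islets. The difference between the islet effects was then positive for 1 of 42 members and 868 of 15702 genes. Under it 6 of 42 members changed sign in β-cells, 6 of 41 in TSC1 KO islets, 5 of 42 in Db islets and 3 of 42 in the difference between the islet effects, none of them called under either scaling. Pdha1 (-0.04 in β-cells, 0.10 in Db islets) and Pfkfb2 (-0.07 in β-cells) were among these. Pdk4 in β-cells stood at 0.81 with limma-voom. With 1 library left out, the log2 fold change of Pdk4 ran from -1.60 to 0.52 in β-cells and from -2.02 to 0.35 in Db islets, and that of Pdha1 in β-cells from -0.04 to 0.27. In TSC1 KO islets DESeq2 called 1 of 41 members and 1256 of 14515 genes higher. With no filter on low counts, 5 of 43 members and 1850 of 22085 genes were lower there. With 1 library left out, adult β-cells had 0 to 4 members higher and 0 lower, TSC1 KO islets 0 to 5 higher and 0 to 5 lower, and Db islets 5 to 11 higher and 4 to 8 lower. The effects differed upward for 1 to 6 members and downward for 6 to 10. The share of all genes called changed with the library left out as well, from 2.68% to 9.05% in the β-cell fits. It also changed in both islet comparisons and in the difference between the islet effects. Whether the members changed more than other genes was not tested. Where a group kept 1 library, that library was taken to vary like the others. The cause of these changes was not tested.

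With the replicate number as a block, 1 member was higher and 2 lower in TSC1 KO islets (11.4% of all genes called). In Db islets 10 were higher and 9 lower (46% of all genes called). Pfkfb2 lost its call and Pfkfb3 gained one in TSC1 KO islets, and Pdk2 lost its call in Db islets. Deviations of same-numbered libraries correlated at -0.0563 and -0.0477, and no label says that a number marks a shared animal. No paired analysis was possible because the β-cell columns share only 1 unambiguous number, and none was made for the difference between the islet tables. Depth limits the low members most, as for Pgam2, Pfkfb1 and Gapdh.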
